A study of Bombus terrestris with 8 samples.

Results

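Of the 65 entries in the table of Bombus terrestris miRNAs, 5 belong to hairpins whose identifiers come from a numbering given to honeybee small RNAs: bte-mir-3715, bte-mir-3718a, bte-mir-3759, bte-mir-3786 and MC848. They were chosen by name. MC848 has no miRBase identifier of its own and is the other arm of the bte-mir-3786 hairpin, so the 5 entries represent 4 hairpins. Small RNA was sequenced from whole bodies of worker-destined diploid female larvae, with 4 libraries of early larvae (instars 1 and 2) and 4 libraries of late larvae (instar 4), all untreated. Larvae came from 4 colonies, with 2 libraries from each, and those of one colony and stage were pooled before RNA extraction, so a library is a pool of animals and values of single larvae are not given. The colony behind each replicate number is not in the sample descriptions. A whole larva has no single defining miRNA in the list, and the labelled tissue was not checked against markers.

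A miRNA is cut from a hairpin transcript in 2 steps by RNase III enzymes, which leave a short duplex of both arms. One strand, the mature miRNA, is kept by an Argonaute protein and guides it to messenger RNAs, and its seed, bases 2 to 8 from the 5′ end, contributes most to target choice. The other strand is usually degraded, although some hairpins deliver both. In honeybees, small RNAs have been studied in caste development and in worker tasks. Many of the miRNAs in this numbering were read first from honeybee libraries and are counted at low levels, and no target of these 5 sequences was analysed here.

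The mature sequences are shown first because the seed defines a miRNA family. Each is written 5′ to 3′ as DNA, as in the deposited table, with the seed in capitals.
bte-mir-3715: tATTATGCtccgtttatcgttg
bte-mir-3718a: tCCCCTGTcctgtcccgatagt
bte-mir-3759: cGGGACTCacgttgactgggcg
bte-mir-3786: tCTGTATGgctcaggacgatac
MC848: cTTGTCCTggttcatgtagggc

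All 5 were 22 nt long, the median length of the 60 other entries. No seed was shared between them, and 0 of the other listed entries carried the same bases 2 to 8 or the same bases 2 to 7 as any of the 5. By sequence they are thus 5 separate families within the list, and the common numbering is no sign of relatedness. The closest seed in the list was that of bte-mir-3785 (Group10.1, 4344632 to 4344712, plus strand), which was named after its sequence had been seen. It is shown because its identifier also falls in the same numbering.
bte-mir-3785: tACCCTGTaacgtcctgagact

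Counted from the 5′ end of bte-mir-3718a, bte-mir-3785 differs at 7 positions, of which C2A is the only one in the seed. The seed of bte-mir-3785 is that of the deeply conserved mir-10 family, and the 1 base at position 2 separates bte-mir-3718a from it. The mature sequences of the 5 miRNAs occurred in 0 precursors other than their own, on either strand, so exact copies within the list cannot have shared their reads.

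The precursors are given with the mature sequence in capitals, since its place within the hairpin tells the arm. In all 5 entries the mature sequence lay at the listed position. Coordinates are those of the deposited table on Bter_1.0.
bte-mir-3715 (Group2.2, 2860166 to 2860252, plus strand): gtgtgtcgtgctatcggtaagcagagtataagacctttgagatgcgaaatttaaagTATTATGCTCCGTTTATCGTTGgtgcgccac
bte-mir-3718a (Group3.5, 3729008 to 3729128, plus strand): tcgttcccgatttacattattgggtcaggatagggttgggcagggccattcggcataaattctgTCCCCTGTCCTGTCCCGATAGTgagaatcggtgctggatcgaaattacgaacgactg
bte-mir-3759 (Group5.1, 11230062 to 11230153, minus strand): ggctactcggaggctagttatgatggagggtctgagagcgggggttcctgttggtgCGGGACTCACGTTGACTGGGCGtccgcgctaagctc

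The hairpin on Group14.7 (1851521 to 1851595, minus strand) is printed with both listed arms in capitals, MC848 first and bte-mir-3786 second.
bte-mir-3786 and MC848: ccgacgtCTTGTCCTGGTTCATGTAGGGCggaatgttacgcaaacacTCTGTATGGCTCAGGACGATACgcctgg

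The named miRNAs bte-mir-3715, bte-mir-3718a, bte-mir-3759 and bte-mir-3786 all lay on the 3p arm, and MC848 lay on the 5p arm. In the predicted fold of the shared hairpin, 18 bases of MC848 paired with bases of bte-mir-3786, 18 nt lay between the arms, and each arm ended in a 3′ overhang of 2 nt. A 3′ overhang of 2 nt at each end is the shape that RNase III enzymes leave. The table thus lists both strands of one such duplex.

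The folds of the 4 hairpins differed in length and stability. The precursor of bte-mir-3718a was the longest of the 4, at 121 nt, and had a minimum free energy of −56.2 kcal/mol, lower than that of 59 of the 60 other entries. The energies of the precursors of bte-mir-3715 (−33.5 kcal/mol, 87 nt) and bte-mir-3759 (−34.0 kcal/mol, 92 nt) were near the median of the other entries (−34.2 kcal/mol). That of the bte-mir-3786 hairpin (−26.9 kcal/mol, 75 nt) was higher than that of 53 of them. Per 100 nt, which removes most of the effect of length, bte-mir-3718a had −46.4 kcal/mol and the others −35.9 to −38.5 kcal/mol, against a median of −42.1 kcal/mol for the 60 other entries. The mature sequence of bte-mir-3759 had a GC content of 68.2%, above that of all 60 other entries, and bte-mir-3715 was at the other end of the group with 36.4%.
The authors list bte-mir-3715, bte-mir-3718a and bte-mir-3759 as conserved with other species, and bte-mir-3786 and MC848 as predicted with miRCat. For homologues that no prediction program found, the paper also asked for high similarity, a clear hairpin and over 100 reads. Whether these criteria were applied to bte-mir-3759, which had 41 reads in the counts used here, is not stated. No other listed hairpin lay within 10 kb of any of the 4. Group5.1 carried 5 other entries, the nearest of them bte-mir-279a at 4045512 bp from bte-mir-3759, and the other 3 scaffolds carried no other listed hairpin. Genes around these hairpins were not analysed here.

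These are miRNAs of low abundance in whole larvae. Together they took 839 of 2055487 reads on listed sequences (0.0408%). The early libraries held 204223 to 502540 listed reads and the late libraries 45649 to 257161. Values below are CPM, counts per 1000000 listed reads after TMM scaling. TMM is a normalization of edgeR that assumes most miRNAs to be unchanged. In this unit 1 read was worth 1.71 CPM in early replicate 1 and 19.6 CPM in late replicate 4, the smallest library. A count of 0 allowed up to 5.14 CPM in early replicate 1 and up to 58.9 CPM in late replicate 4 (3 counts in each). Intervals and limits of this kind cover counting error only and leave out the spread between libraries. They treat reads as independent, and since reads copied in PCR are not independent molecules, they may be too narrow. Late replicate 4 stood apart in detection, with 17 of 63 sequences at 0 reads, against 1 to 4 in the other 7 libraries.

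Each of the 5 was detected in 7 of 8 libraries, and the same 7 held at least 3 reads of it. Of these, 4 were missing in late replicate 4, and bte-mir-3759 was missing in early replicate 2. All 5 sequences have the same length, so their CPM are set side by side without a length correction, but how well each sequence was ligated and amplified was not tested and can differ between sequences. Over the 8 libraries bte-mir-3718a was the most abundant, at 236 ± 319 CPM (SD, n = 8), rank 33 of 63. Next came bte-mir-3715 at 58.9 ± 34.7 CPM (rank 46), bte-mir-3786 at 53.4 ± 35.2 CPM (rank 48) and MC848 at 50.9 ± 27.0 CPM (rank 49). The lowest was bte-mir-3759 at 36.3 ± 35.5 CPM (rank 55). Below bte-mir-3718a each step between neighbours was smaller than the SD of either, so the order of the other 4 is not firm. By mean or median, bte-mir-3718a ranked above them in each alternative tried for the ranks (33 to 39, against 44 or lower in the list). Its SD was larger than its mean, however, and it was not the highest in every library. It was below MC848 in early replicate 1 (54.8 against 71.9 CPM) and early replicate 4 (58.8 against 82.3 CPM), and at 0 in late replicate 4. In the whole list they were flanked by bte-mir-996 (436 ± 146 CPM) and bte-mir-307 (173 ± 72.9 CPM) around bte-mir-3718a, by MC476 (65.8 ± 76.6 CPM) and bte-mir-3730 (57.0 ± 44.7 CPM) around bte-mir-3715, by bte-mir-281 (48.9 ± 39.4 CPM) below MC848, and by bte-mir-2944 (39.9 ± 32.6 CPM) and bte-mir-29b (33.5 ± 21.7 CPM) around bte-mir-3759.

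**Figure D1:**
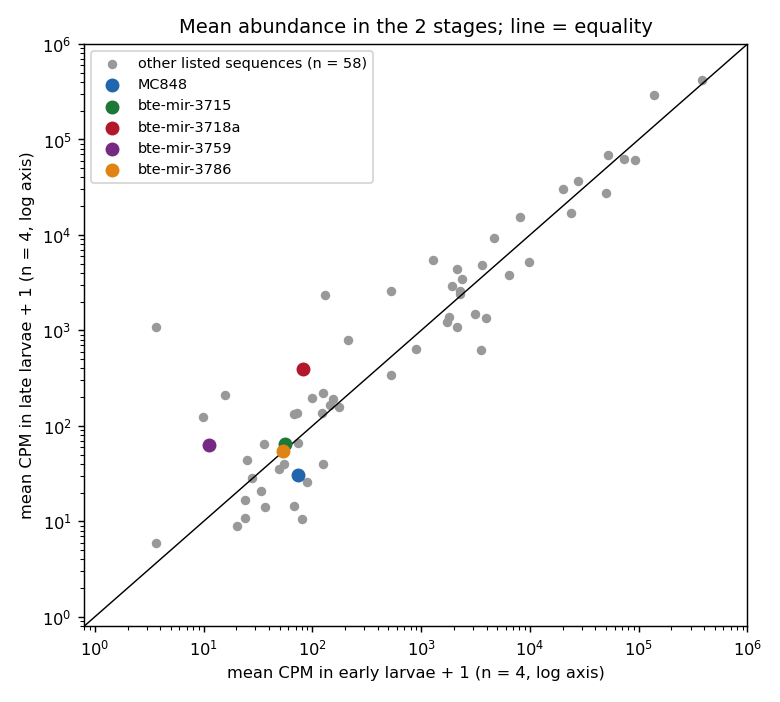
Mean CPM plus 1 of each of the 63 sequences in early larvae (x axis) and late larvae (y axis), both log axes, with 4 libraries in each mean and the line of equality. The 5 coloured points are the miRNAs described here, which lie in the lower part of the range, with bte-mir-3718a and bte-mir-3759 above the line and MC848 below it.

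The order differed between stages. In early larvae it ran from bte-mir-3718a (81.2 ± 31.7 CPM, SD, n = 4) through MC848 (72.4 ± 8.87), bte-mir-3715 (54.8 ± 6.46) and bte-mir-3786 (52.7 ± 30.2) to bte-mir-3759 (10.2 ± 6.97). In late larvae it ran from bte-mir-3718a (390 ± 416 CPM, SD, n = 4) through bte-mir-3715 (63.1 ± 52.2), bte-mir-3759 (62.4 ± 32.8) and bte-mir-3786 (54.2 ± 44.5) to MC848 (29.3 ± 19.6). The SD was larger among late libraries for all 5, and among late libraries each step to a neighbour was within the larger SD. Without late replicate 4, the late SD of MC848 was 2.21 CPM (n = 3), below its early SD, while those of the others stayed above theirs. Relative to the mean, bte-mir-3759 spread less in late larvae (SD 52.5% of the mean) than in early larvae (68.3%).

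**Figure D2:**
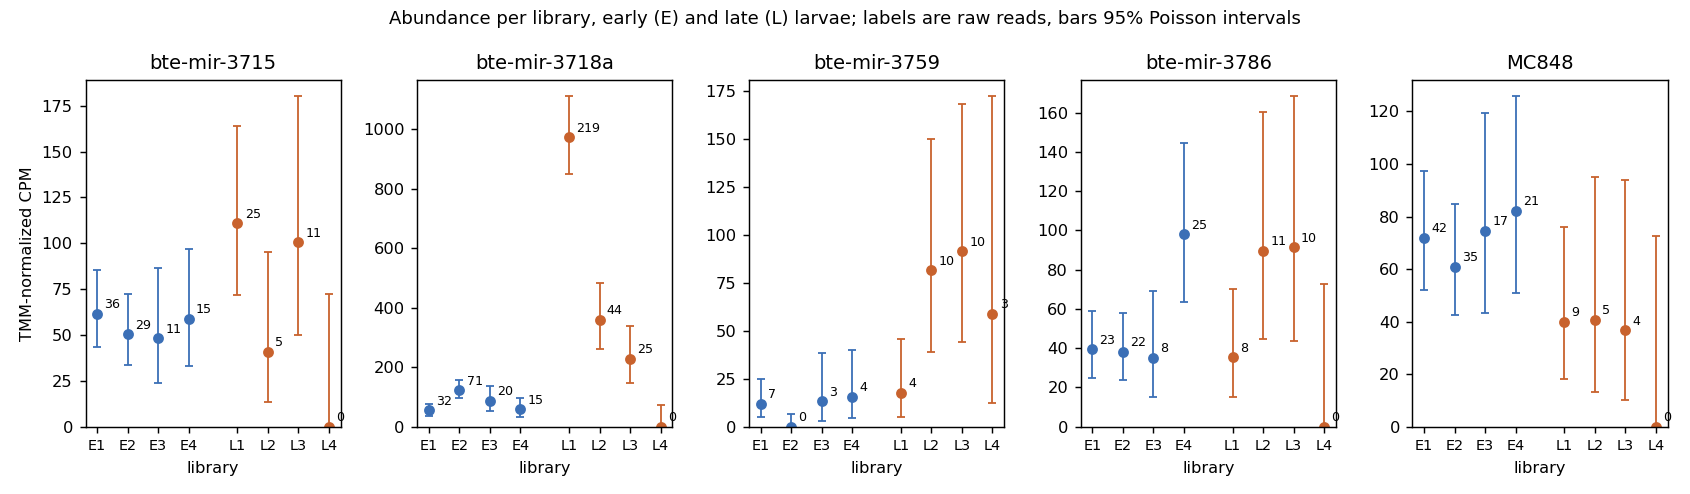
CPM of each of the 5 miRNAs in early (E, blue) and late (L, orange) libraries 1 to 4, each panel with its own linear axis. Numbers beside the points are raw reads and bars are 95% exact Poisson intervals for counting error. Late replicate 1 of bte-mir-3718a, at 972 CPM, is the highest point of all, and 4 of the 5 panels end at 0 in late replicate 4.

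Whether these miRNAs change as worker larvae grow was asked by comparing the 4 late with the 4 early libraries. In these bulk pools, fewer cells of a type and less RNA per cell cannot be told apart. Of the 5, bte-mir-3718a and bte-mir-3759 rose in late larvae and none fell, in edgeR's quasi-likelihood test (Benjamini-Hochberg adjustment over all 62 sequences tested, threshold 0.05). In the whole list 32.3% of sequences were called (20 of 62), 19.4% as higher and 12.9% as lower in late larvae, so 2 calls among 5 is near the share of the list and is not a result about these miRNAs as a group. Their median log2 fold change was 0.37, against 0.18 over all sequences tested. That median moved with the scaling. TMM sets each library against a reference library, which was early replicate 2, and it was −0.22 when late replicate 4, the library with the most zeros, was the reference instead. The split of calls moved too, from 12 higher and 8 lower as reported to 10 and 18 with that reference, 11 and 14 when scaling by the listed total, and 12 and 13 with DESeq2. Fold changes are therefore also given relative to the median of all tested sequences.

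bte-mir-3718a had the largest counts of the group and the most uneven ones. In early replicates 1 to 4 it had 32, 71, 20 and 15 reads, or 54.8, 123, 87.7 and 58.8 CPM. In late replicates 1 to 4 it had 219, 44, 25 and 0 reads, or 972, 359, 229 and 0 CPM. The first 3 late libraries thus exceeded every early library, and the fourth lay below every early library, so the stages overlapped.
The log2 fold change of bte-mir-3718a was 2.32 (standard error 0.75, adjusted p = 0.0244, edgeR), or 2.14 relative to the median of all sequences. The counting intervals of the late libraries with reads, which began at 148 CPM in late replicate 3, did not meet the early intervals in 3 of the 4 early libraries; in early replicate 2 the interval reached 156 CPM. Late replicate 1 supplied 219 of the 288 late reads. Without it the log2 fold change was 0.77 (adjusted p = 0.342, edgeR), or 1.28 relative to the median, which ended the call. TMM then chose late replicate 4 as its reference, and with early replicate 2 kept as the reference the value without late replicate 1 was 1.38 (adjusted p = 0.0877, edgeR). The call was also lost without any one of the early libraries or late replicate 2 (adjusted p = 0.0644 to 0.0769, edgeR), with the log2 fold change at 2.15 to 2.35. Without late replicate 4 it was 2.69 (adjusted p = 0.00427, edgeR). With replicate number added as a block, the log2 fold change was 1.70 and the call was lost (adjusted p = 0.143, edgeR). Whether these numbers mark colonies is not known.

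The absence of bte-mir-3718a from late replicate 4 can be set against the depth of that library. At the mean CPM of late replicates 1 to 3 (520 ± 397, SD, n = 3) that library would hold 26.5 reads, and at the early mean 4.13 reads. The late mean was raised by late replicate 1, at 972 CPM. At the values of late replicates 2 and 3 (359 and 229 CPM) fewer reads would be expected. Among the 32 sequences for which at least 26.5 reads would be expected there in the same way, bte-mir-3718a was the only one at 0. Most of the 32 would hold far more reads, so a 0 could hardly occur among them. The nearest above bte-mir-3718a were MC295 (27.6 reads expected, 78 counted), bte-mir-2-1 (36.3 and 19), bte-mir-6001 (40.0 and 103) and bte-mir-7 (40.4 and 10). Of the sequences outside the group that were at 0 in this library, the highest expected number was 13.2 reads, for bte-mir-2796. The limit of 58.9 CPM for late replicate 4 lies below the lowest of the other late values, 229 CPM, and above the lowest early value, 54.8 CPM. Late replicate 4 is thus below the rest of its stage, and no difference from early larvae can be read from it at this depth.

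**Figure D3:**
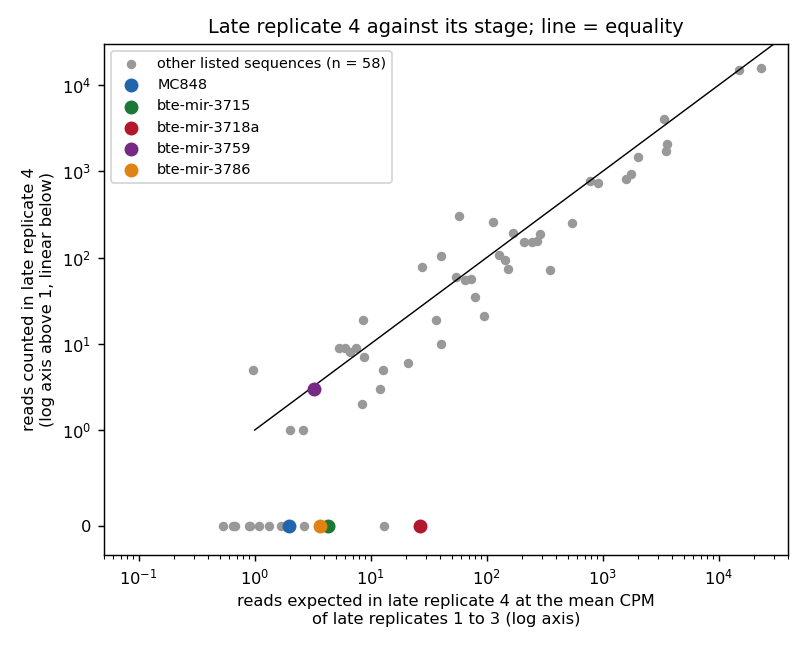
Reads counted in late replicate 4 (y axis, log above 1 and linear below) against the reads expected there at the mean CPM of late replicates 1 to 3 (x axis, log) for all 63 sequences, with the line of equality. bte-mir-3718a lies at 0 with 26.5 reads expected, farther right than every other sequence at 0, and bte-mir-3759 lies near the line with 3 reads. The expected number of bte-mir-3718a was raised by late replicate 1.

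bte-mir-3759, the rarest of the group with 41 reads, was the only one detected in every late library. In early replicates 1 to 4 it had 7, 0, 3 and 4 reads, or 12.0, 0, 13.2 and 15.7 CPM. In late replicates 1 to 4 it had 4, 10, 10 and 3 reads, or 17.8, 81.6, 91.5 and 58.9 CPM. All 4 late values were above all 4 early values, as for 12.9% of the sequences tested, but late replicate 1 and early replicate 4 both rested on 4 reads and their counting intervals overlapped.
The log2 fold change of bte-mir-3759 was 2.64 (standard error 0.78, adjusted p = 0.0168, edgeR), or 2.46 relative to the median. Summed over libraries, 14 reads gave 8.52 CPM in early larvae (95% Poisson interval 4.66 to 14.3) and 27 reads gave 53.2 CPM in late larvae (35.0 to 77.3). Without early replicate 2, the library at 0, the log2 fold change was 1.63 and the call was lost (adjusted p = 0.0745, edgeR), but TMM then took late replicate 4 as its reference, and with early replicate 4 as the reference the value was 1.98 and passed (adjusted p = 0.0450, edgeR). Without late replicate 2 it was 2.35 (adjusted p = 0.0785, edgeR). Late replicate 4, in which the other 4 were at 0, held 3 reads of bte-mir-3759, against 3.24 expected at the mean of the other late libraries and 0.520 at the early mean.

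**Figure D4:**
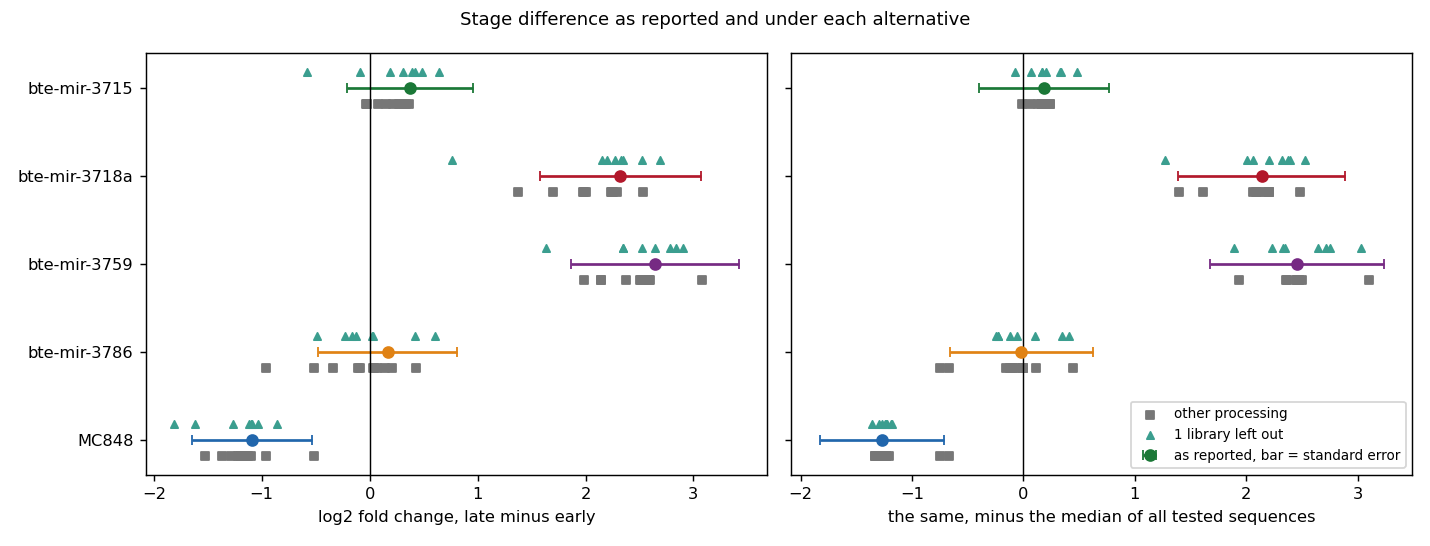
Log2 fold change, late minus early, of each of the 5 miRNAs (left) and the same after subtracting the median of all tested sequences in that fit (right). Circles are the reported values with their standard errors, squares other processing (2 of them with a fixed TMM reference and 1 library left out) and triangles fits without 1 library; for bte-mir-3786 and MC848, squares near −0.96 and −0.52 are the sum of both arms. bte-mir-3718a and bte-mir-3759 stay right of 0 and MC848 left of 0 in every fit, and bte-mir-3715 and bte-mir-3786 lie on both sides.

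bte-mir-3715 had the smallest SD of the 5 in early larvae, 6.46 CPM. In early replicates 1 to 4 it had 36, 29, 11 and 15 reads, or 61.7, 50.4, 48.2 and 58.8 CPM. In late replicates 1 to 4 it had 25, 5, 11 and 0 reads, or 111, 40.8, 101 and 0 CPM. Of the late libraries, 2 lay above all early values and 2 below. The log2 fold change was 0.37 (standard error 0.59, adjusted p = 0.638, edgeR), or 0.19 relative to the median, and its sign turned in 5 of 19 alternatives. In late replicate 4, 4.29 reads would be expected at the mean of the other late libraries (84.2 CPM). The limit of 58.9 CPM for the 0 there, and its exact interval, which reached 72.4 CPM, lie below that mean. Both also lie below the values of late replicates 1 and 3, but the intervals of these began at 71.8 and 50.3 CPM and so met that of the 0. No difference from late replicate 2 or from early larvae can be read from the 0 at this depth.

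The 2 arms of the bte-mir-3786 hairpin were counted at like levels, and neither passed the test between stages. bte-mir-3786 had 23, 22, 8 and 25 reads in early replicates 1 to 4, or 39.4, 38.2, 35.1 and 97.9 CPM. In late replicates 1 to 4 it had 8, 11, 10 and 0 reads, or 35.5, 89.7, 91.5 and 0 CPM. The stages overlapped, with early replicate 4 the highest of the 8. The log2 fold change of bte-mir-3786 was 0.17 (standard error 0.64, adjusted p = 0.812, edgeR), or −0.02 relative to the median.
MC848, from the 5p arm, had 42, 35, 17 and 21 reads in early replicates 1 to 4, or 71.9, 60.8, 74.6 and 82.3 CPM. In late replicates 1 to 4 it had 9, 5, 4 and 0 reads, or 40.0, 40.8, 36.6 and 0 CPM. All late values were below all early values, as for 19.4% of the sequences tested, and the 3 late libraries with reads lay between 36.6 and 40.8 CPM. The limit of 58.9 CPM for the 0 in late replicate 4 was still below the lowest early value, 60.8 CPM, but the exact 95% interval of that 0 reached 72.4 CPM.
The log2 fold change of MC848 was −1.09 (standard error 0.56, adjusted p = 0.139, edgeR), or −1.27 relative to the median, and so did not pass the threshold. It passed with DESeq2 (−1.13, adjusted p = 0.0456), with late replicate 4 as the TMM reference (−1.53, adjusted p = 0.0395, edgeR) and without late replicate 1 (−1.81, adjusted p = 0.0383, edgeR), where that reference was chosen as well. With late replicate 1 left out but early replicate 2 kept as the reference, it did not pass (−1.22, adjusted p = 0.165, edgeR). Summed over libraries, 115 early reads gave 70.0 CPM (95% Poisson interval 57.8 to 84.0) and 18 late reads 35.4 CPM (21.0 to 56.0), intervals that do not meet but leave out the spread between libraries.

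The ratio of the arms within a library does not depend on the scaling. MC848 held 64.6% of 65 reads, 61.4% of 57, 68.0% of 25 and 45.7% of 46 in early replicates 1 to 4. It held 52.9% of 17 reads, 31.3% of 16 and 28.6% of 14 in late replicates 1 to 3, and late replicate 4 had 0 reads on the hairpin. The 5p arm was thus the more abundant in 3 of 4 early libraries and in 1 of 3 late libraries, with early replicate 4 below late replicate 1. The mean share fell by 22.3 percentage points, from 59.9% to 37.6%, which did not pass 0.05 (two-sided exact permutation test, p = 0.114, n = 4 and 3). The smallest p that 4 against 3 libraries allow in this exact permutation test is 0.0571, so no difference could have passed. Counting intervals were wide, for example 8.39% to 58.1% in late replicate 3 (95% Clopper-Pearson). Summed over libraries, the 5p share was 59.6% of 193 early reads (52.3% to 66.6%) and 38.3% of 47 late reads (24.5% to 53.6%).

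**Figure D5:**
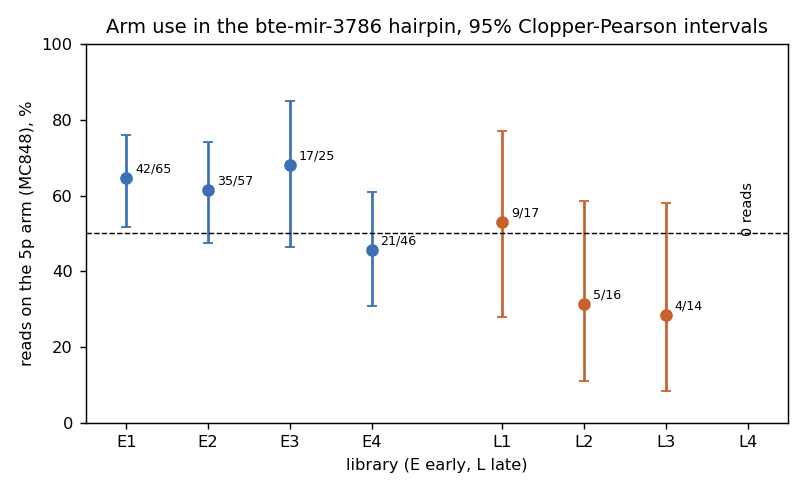
Percent of the reads of the bte-mir-3786 hairpin that fall on its 5p arm, MC848, in each library, with 95% Clopper-Pearson intervals and the reads behind each point; the dashed line marks an even split. Early libraries lie between 45.7% and 68.0%, late libraries between 28.6% and 52.9%, and late replicate 4 has no value.

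The sequences whose profiles over the 8 libraries were most like those of the 4 miRNAs with at least 100 reads were found by the root mean square difference of centred log2 CPM. For bte-mir-3715 they were bte-mir-932 (0.43, against a median of 1.15 over all 62 other sequences) and bte-mir-iab-4 (0.58). For bte-mir-3786 they were bte-mir-932 (0.47, median 1.15) and bte-mir-2796 (0.68). These profiles share the drop in late replicate 4, in which bte-mir-932 and bte-mir-2796 were also at 0.
bte-mir-3718a was nearest to bte-mir-2796 (0.99, median 1.87) and bte-mir-281 (1.06), which were at 0 in late replicate 4 as well. MC848 was nearest to bte-mir-3785 (0.38, median 1.01) and bte-mir-996 (0.45), not to its partner arm. These likenesses are descriptions over 8 libraries that share depth and stage.

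The list holds 5 other miRNAs whose identifiers fall in the 37xx numbering or in 60xx, a later bee numbering. Of these, 1 rose in late larvae and none fell, and their median log2 fold change was −1.05. Over all sequences tested, 19.4% were called higher and 12.9% lower, so 1 call among 5 is near that share. It is not a result about these 5 as a group. The one that rose was bte-mir-6001 (log2 fold change 8.83, a value that depends on the prior count because early libraries held 0 to 2 reads, adjusted p = 7.76e-07, edgeR). bte-mir-3730 (−1.53, adjusted p = 0.0876, edgeR), bte-mir-3785 (−1.05, adjusted p = 0.0637, edgeR), bte-mir-6037 (0.95, adjusted p = 0.139, edgeR) and bte-mir-6039 (−1.06, adjusted p = 0.270, edgeR) did not pass. bte-mir-3785, the near neighbour of bte-mir-3718a in seed, was far more abundant, at 3121 ± 512 CPM in early and 1492 ± 965 CPM in late larvae (SD, n = 4 each), and its fitted change had the opposite sign.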

How the data were processed

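The authors mapped the combined reads of 8 small RNA libraries to the genome (Bter_1.0), predicted precursors with miRCat and added homologues of known miRNAs. They deposited raw read counts per mature sequence and library, not normalized or pooled. The counting program, mismatches allowed, end variants and use of the degenerate adaptor bases are not given in the sources used here, and every column of reads matched a sample. Replicates of a stage differed by more than sampling noise (chi-square per degree of freedom at least 19.0). Since the colony of each library is not given, p-values measure only the spread between these libraries, which may be partly technical. If each colony gave an early and a late library, the stages are paired by colony. The reported test, with stage as its only term, does not use such pairing.

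An entry with blank cells (bte-mir-275) was left out and a sequence listed at 2 loci was counted once, which left 63 sequences. The 62 with at least 10 counts were tested across all libraries with edgeR 4.0.16 in R 4.3.3 (TMM, quasi-likelihood test, stage as the only term, Benjamini-Hochberg adjustment), checked on simulated data. The standard error of a log2 fold change was taken as its size over the square root of F. Other steps used Python 3.11.15, SciPy 1.17.1 and RNAfold 2.7.2. Profiles used a prior count of 2. Alternatives were DESeq2 1.42.0, scaling by the listed total, no filter or at least 50 counts, a replicate block, both loci kept, both arms summed and each library left out. Other TMM reference libraries were tried after seeing the data, and 2-sided permutation p-values were computed as 2 times the smaller tail. The 5 miRNAs and all lists were chosen with earlier results of these data known. Also named were the 2 nearest profiles of miRNAs with at least 100 reads, neighbours in the order of mean CPM, and listed entries sharing a seed or within 10 kb. Authors' comparison columns were not in the table.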

Additional observations from a re-analysis of the deposited data

Results flagged for a closer look

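In early larvae, bte-mir-3786 had 1 library far from the others of its stage: early replicate 4 was at 97.9 CPM, while the next highest was at 39.4 CPM. Its gap to the nearest value, divided by the range, was 0.931, above Dixon's 95% critical value for 4 samples. MC848, the other arm, was at 82.3 CPM in that library and did not stand apart.

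In late larvae, MC848 had 1 library far below the others: late replicate 4 was at 0 CPM, while the nearest value was 36.6 CPM (gap over range 0.898). At the mean of late replicates 1 to 3 that library would hold 1.99 reads, and its limit of 58.9 CPM lies above the other late values, so no difference from them can be read at this depth. In all, 11 groups of 4 libraries were checked and 2 stood out. Chance alone gives about 1 in 20.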

How the results depend on the processing

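The number of sequences called, 20 as reported, was 16 to 28 with other processing and 15 to 29 with 1 library left out. The TMM reference became late replicate 4 in 3 alternatives, namely both arms of the bte-mir-3786 hairpin summed, without early replicate 2 and without late replicate 1 (medians of all sequences −0.21, −0.26 and −0.51). Settings that fix the reference were added after seeing the data. bte-mir-3718a kept its direction in all 19 alternatives and its call in 9. It lost the call with the replicate block (log2 fold change 1.70, adjusted p = 0.143, edgeR), with the arms summed (1.98, adjusted p = 0.0513, edgeR, but 2.25 and 0.0262 with early replicate 2 as the reference) and with late replicate 1 left out under that reference (1.38) and with early replicate 2 left out against early replicate 4 (2.53). With 1 library left out it ranged from 0.77 to 2.69. bte-mir-3759 kept its direction in all 18 alternatives that tested it and its call in 16, among them the replicate block (2.59, adjusted p = 0.0454, edgeR), with 1.63 to 2.91 when 1 library was left out. A minimum of 50 counts removed it. MC848 passed the threshold with DESeq2 (−1.13) and against late replicate 4 (−1.53), and ranged from −1.81 to −0.86 with 1 library left out, of which −1.81 was −1.22 (adjusted p = 0.165, edgeR) against early replicate 2. The sign of bte-mir-3715 turned with the arms summed (−0.030), against late replicate 4 (−0.029), with late replicate 1 left out against early replicate 2 (−0.027) and, without 1 library, within −0.58 to 0.64. That of bte-mir-3786 turned with the listed total (−0.088), against late replicate 4 (−0.34), with early replicate 2 left out against early replicate 4 (−0.11), for the summed hairpin (−0.96, or −0.52 against early replicate 2) and, without 1 library, within −0.49 to 0.61. Beyond the TMM reference, the cause was not tested. The arm share difference kept its sign in all 11 alternatives (−30.0 to −17.8 percentage points), among them pairs by replicate number, the replicate block (−27.1, exact permutation test, p = 0.25, the smallest that 3 pairs allow). Whether equal replicate numbers mark the same colony cannot be told from these counts, since a weak effect of colony would also give low correlations. Deviations of equal numbers correlated at −0.12 to 0.071 across sequences, 1 of 4 early libraries correlated best with its own number, and the block gave 18 calls. The depth of late replicate 4 limits the values of the 4 miRNAs that were at 0 there.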
